A study of Drosophila melanogaster with 2 samples.

Results

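The far-distal Taiman peaks are the 339 regions of the deposited IDR peak list on dm6 whose summit lay more than 10 kb from every transcription start site (TSS) of a protein-coding gene in the Ensembl annotation, inside a gene or not. They made up 13.2% (95% interval 11.9 to 14.6%) of the 2567 IDR peaks on arms 2L, 2R, 3L, 3R, 4 and X. The whole list held 2591 peaks, of which 24 on the mitochondrial genome were outside the choice. The choice used position alone and no measured value.

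Chromatin immunoprecipitation and sequencing was done with an anti-GFP antibody on whole larvae at the wandering stage of the third instar, males and females pooled and age unknown, of a tai-GFP line whose transgene encodes Taiman with eGFP at its C terminus. The series holds 1 group with 2 biological replicates, numbered 1 and 3, of this 1 genotype, untreated as far as the labels say. Both replicates were set against the same control. A whole larva mixes tissues, so a peak found in few cells and a weak peak found in many cannot be told apart, and no second stage or genotype is there to compare with.

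Taiman (tai) is a coactivator with bHLH and PAS domains that is known to work with the ecdysone receptor, the nuclear receptor through which the steroid ecdysone times moulting and metamorphosis. The wandering stage is the time at which ecdysone starts metamorphosis. In flies, enhancers of developmental genes often lie far from the promoter they act on, in long introns or in wide stretches without genes, so distance leaves the target of a far peak unknown. Host gene below means a protein-coding gene whose body holds the summit, and flanking genes are those with the nearest TSS on each side. Neither is shown to be a target.

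Reference sequence around 7 far-distal summits is printed here to show what these regions are made of. The first 5 are the strongest with support in both replicates and in different clusters, on the arms from which sequence is shown (2L, 3L, 3R, 4 and X). The last 2 are the strongest on those arms with AGGTCA, the core of nuclear receptor binding sites, and with CACGCG, a sequence known from the mosquito Aedes aegypti as bound by Taiman with the juvenile hormone receptor Met. All are 300 bases from RefSeq's copy of the dm6 assembly, plus strand. They are chr3R:17704256-17704555 in an intron of osa, chr3L:18011758-18012057 in an intron of Eip75B, chr3R:6423981-6424280 in an intron of gpp, chr2L:9211150-9211449 in an intron of tai, chr2L:21009355-21009654 in an intron of CG42238, chr3L:781204-781503 between hng3 and CG13898, and chr3L:17590565-17590864 in an intron of Eip74EF. Capitals mark matches, on either strand, to any of the 20 short motifs searched.
osa: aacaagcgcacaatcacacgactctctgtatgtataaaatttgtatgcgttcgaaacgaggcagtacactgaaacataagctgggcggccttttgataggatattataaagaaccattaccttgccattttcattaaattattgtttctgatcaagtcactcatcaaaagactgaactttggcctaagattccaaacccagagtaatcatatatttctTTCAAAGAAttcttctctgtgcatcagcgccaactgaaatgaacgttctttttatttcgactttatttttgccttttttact
Eip75B: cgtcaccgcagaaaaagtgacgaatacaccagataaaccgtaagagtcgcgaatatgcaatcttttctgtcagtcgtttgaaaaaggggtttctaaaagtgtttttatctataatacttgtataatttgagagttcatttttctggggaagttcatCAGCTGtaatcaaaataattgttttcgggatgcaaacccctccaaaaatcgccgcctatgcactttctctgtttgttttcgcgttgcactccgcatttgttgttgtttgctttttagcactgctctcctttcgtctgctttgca
gpp: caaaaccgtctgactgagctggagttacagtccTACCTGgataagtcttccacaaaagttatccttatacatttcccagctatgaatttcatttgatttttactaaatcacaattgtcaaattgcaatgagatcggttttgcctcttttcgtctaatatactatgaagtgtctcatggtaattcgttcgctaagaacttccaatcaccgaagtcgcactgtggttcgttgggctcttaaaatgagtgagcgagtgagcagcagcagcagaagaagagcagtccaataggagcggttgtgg
tai: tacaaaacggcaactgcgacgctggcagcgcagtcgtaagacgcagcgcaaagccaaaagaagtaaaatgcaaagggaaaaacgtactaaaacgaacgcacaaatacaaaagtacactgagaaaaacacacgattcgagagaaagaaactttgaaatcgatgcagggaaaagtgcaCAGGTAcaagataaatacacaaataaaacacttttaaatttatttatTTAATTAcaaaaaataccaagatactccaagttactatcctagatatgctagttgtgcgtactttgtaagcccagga
CG42238: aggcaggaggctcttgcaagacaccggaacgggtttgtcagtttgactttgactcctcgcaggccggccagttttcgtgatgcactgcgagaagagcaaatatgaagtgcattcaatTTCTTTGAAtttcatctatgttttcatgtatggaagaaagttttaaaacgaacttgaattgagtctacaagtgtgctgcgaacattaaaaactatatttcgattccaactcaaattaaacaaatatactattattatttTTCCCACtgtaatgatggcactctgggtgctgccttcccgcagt
hng3-CG13898: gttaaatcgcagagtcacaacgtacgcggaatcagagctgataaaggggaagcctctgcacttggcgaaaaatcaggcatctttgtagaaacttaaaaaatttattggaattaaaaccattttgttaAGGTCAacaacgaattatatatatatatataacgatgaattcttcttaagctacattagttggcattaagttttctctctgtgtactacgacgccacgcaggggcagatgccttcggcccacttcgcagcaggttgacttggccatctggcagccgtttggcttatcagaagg
Eip74EF: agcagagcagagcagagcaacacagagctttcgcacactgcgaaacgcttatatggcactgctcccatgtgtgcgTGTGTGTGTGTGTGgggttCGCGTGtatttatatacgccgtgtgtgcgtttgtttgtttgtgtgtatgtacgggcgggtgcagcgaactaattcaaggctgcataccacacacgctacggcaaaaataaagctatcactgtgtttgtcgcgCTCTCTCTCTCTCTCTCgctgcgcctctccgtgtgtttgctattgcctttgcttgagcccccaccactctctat
The capitals in the osa sequence match TTCNNNGAA, the STAT motif, and those in the Eip75B sequence match the E-box CAGCTG. The gpp sequence has the reverse complement of CAGGTA, the motif of the pioneer factor Zelda, and the tai sequence has CAGGTA itself and the homeodomain motif TTAATTA. CG42238 has TTCNNNGAA and the reverse complement of GTGGGAA, the motif of Su(H), the transcription factor of Notch signalling. The hng3-CG13898 sequence has AGGTCA, and its peak, unlike the others, lacked support in both replicates (pooled signal 165, rank 224 in replicate 1 and 8428 in replicate 3). The Eip74EF sequence has the reverse complement of CACGCG between runs of CACACACA and GAGAGAG on the opposite strand. A match says only that these letters are there. Over all arm IDR peaks, windows of 201 bp centred on the summit held TTCNNNGAA in 6.08%, CAGCTG in 7.28%, CAGGTA in 4.05%, TTAATTA in 11.0%, GTGGGAA in 2.22%, AGGTCA in 3.58%, CACGCG in 3.74%, CACACACA in 4.79% and GAGAGAG in 4.6%. These windows are shorter than the 300 bases printed. The CAGGTA match in gpp and the GTGGGAA match in CG42238 lie outside such a window and would not count in these shares.

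Signal below is the authors' own value per region, relative to their control, on a scale that is not stated. The strongest far-distal peaks reached the top of the whole list. The strongest lay at position 13035331 of arm 2R, between Su(z)2, which encodes a Polycomb-group protein, and CG13323. Its pooled signal was 706, with 417 in replicate 1 (rank 6 of that replicate's arm regions) and 289 in replicate 3 (rank 12). The next lay in an intron of osa, which encodes a subunit of the Brahma chromatin remodelling complex, with a pooled signal of 649, 383 in replicate 1 (rank 12) and 294 in replicate 3 (rank 11). Next came a peak in an intron of the ecdysone-induced nuclear receptor gene Eip75B, with a pooled signal of 636, 383 in replicate 1 (rank 13) and 246 in replicate 3 (rank 20). These peaks were high in both replicates and stood apart from the next, in gpp, a histone methyltransferase gene, at 373.

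The gpp peak had 202 in replicate 1 (rank 72) and 170 in replicate 3 (rank 42). The strongest peak inside tai had 346 in the pooled list, 245 in replicate 1 (rank 49) and 102 in replicate 3 (rank 146). The peak in CG42238 had 345, with 234 (rank 57) and 118 (rank 101). Both of these ranked higher in replicate 1 than in replicate 3. The peak between SoxN, an HMG-box transcription factor gene, and CG32986 had 296, with 159 in replicate 1 (rank 150) and 136 in replicate 3 (rank 71). The peak in fz, the gene of the Wnt and planar polarity receptor Frizzled, had 273, with 162 (rank 144) and 112 (rank 119). The rest of the 12 strongest were CG6168|CG6163 at 239, sbb at 234, NijA|CG43245 at 234 and CG7320|CheA75a at 227. All 12 stood among the 2567 strongest arm regions of each replicate; 7 lay in a gene body and 5 between genes.

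**Figure D1:**
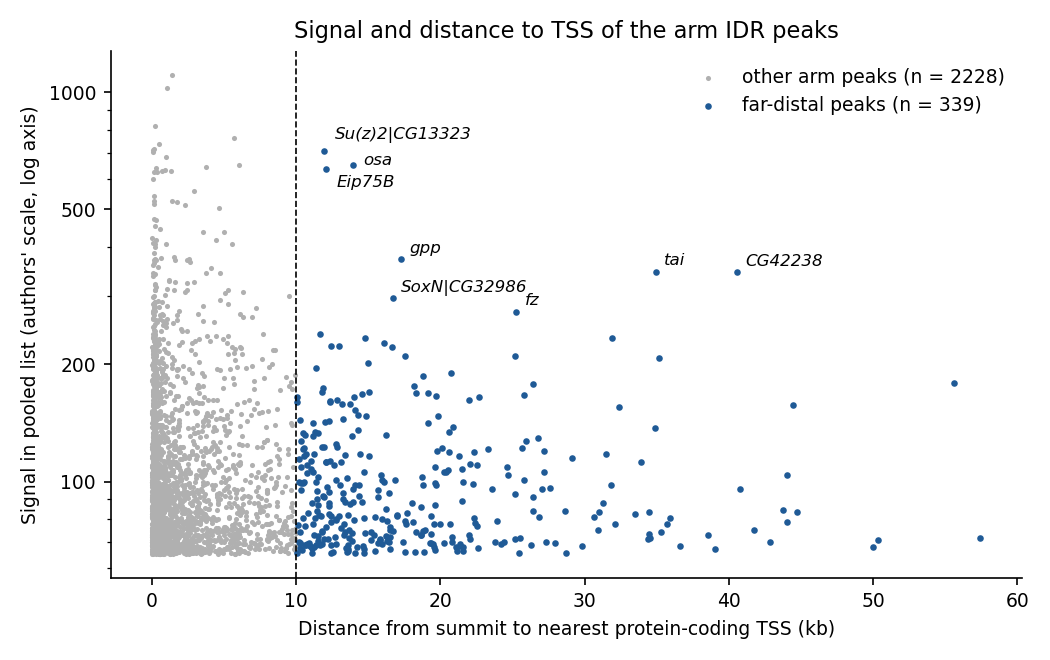
Pooled signal (authors' scale, log axis) against the distance in kb from the summit to the nearest protein-coding TSS for the 2567 arm IDR peaks, with the 339 far-distal peaks in blue, the 10 kb line dashed and the 8 strongest named. The far-distal peaks ran from 65.4 to 706, and 3 of them stood above 600 within 15 kb of a TSS.

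Over all 339, the median far-distal signal was close to that of other peaks away from promoters. The median was 87.1 (quartiles 72.0 and 118, range 65.4 to 706, 95% interval of the median 81.7 to 93.2). The 941 intronic peaks at 0.5 to 10 kb from a TSS had a median of 86.0 and the 374 intergenic peaks at that distance had 88.0, both inside that interval. The 841 peaks within 0.5 kb of a TSS had a median of 96.7, above it. Among the 100 strongest arm peaks were 7 far-distal peaks, which is 2.06% of them against 4.17% of the other arm peaks, and among the 500 strongest were 52 (15.3% against 20.1%). Of the intronic and intergenic peaks at 0.5 to 10 kb, 3.72% and 3.21% were among the 100 strongest. Among the 500 strongest were 17.5% and 17.4% of them. All these peaks had passed a limit on pooled signal, so the medians describe only values of 65.2 or more. Peaks are not replicates of a condition, so these medians carry no test.

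Signal did not fall steadily with distance. The median was 92.7 for the 96 peaks at 10 to 12.5 kb, 88.7 for the 63 up to 15 kb, 80.2 for the 75 up to 20 kb, 94.2 for the 68 up to 30 kb and 82.3 for the 37 beyond 30 kb. The median distance was 15807 bp and 105 peaks lay more than 20 kb away. The farthest, 57422 bp from the TSS of vvl, a POU-domain transcription factor gene, had a signal of 71.7, with 51.5 in replicate 1 and 19.4 in replicate 3, where it ranked only 13344. The next 2 lay in the gene-poor stretch between the odorant receptor gene Or67d and CG12362, at 55623 and 50321 bp from a TSS. The first of them had a signal of 179 and ranked 295 and 461 in the replicates, and the other had 70.6 and ranked 3112 and 3932. Just beyond the 10 kb line lay peaks in Samuel (10029 bp, signal 165), MESR3 (10044 bp, 160) and Abl (10074 bp, 65.5). Just within it lay peaks in LRP1 (9991 bp, 73.8), near tll (9938 bp, 68.2) and in Hr4 (9933 bp, 188).

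Far-distal peaks were seen in both replicates about as often as the rest of the list. Of the 339, 163 (48.1%, interval 42.7 to 53.5%) overlapped one of the 2567 strongest arm regions in each replicate, by 1 bp or more, against 50.4% of all arm IDR peaks. A further 87 did so in replicate 1 only, 61 in replicate 3 only and 28 in neither. Such support in both replicates was 48.0% for intronic and 44.1% for intergenic peaks at 0.5 to 10 kb. For peaks within 0.5 kb of a TSS it was 58.0%, above the far-distal interval. Overlap with any region of both replicate lists, strong or weak, held for 331 of the 339 far-distal peaks (97.6%), against 95.7% of all arm IDR peaks. The other 8 lacked a region in replicate 3, and none lacked one in replicate 1. They were 2 in tai, 2 in kirre, and 1 each in osa, in CG12535, between H15 and mid and between hry and SrpRbeta, with pooled signals of 66.0 to 83.5, and are named for this absence.

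Support followed signal. In the ranks from 1 to 500, 51 of 52 far-distal peaks (98.1%) stood among the strongest of both replicates, against 93.8% of the other arm peaks. At ranks 501 to 1000 the shares were 87.0% and 84.5%, at 1001 to 1500 they were 56.9% and 56.1%, at 1501 to 2000 they were 13.4% and 16.9%, and below that 6.98% and 6.03%. In each of these ranges the share of the other peaks lay inside the interval of the far-distal share. The rank itself comes from both replicates pooled, so it is not independent of this support. Over the 331 peaks with a region in both lists, signals in the replicates had a Spearman's rho of 0.364, and over 2125 other arm peaks rho was 0.475. Among the latter, rho was 0.342 for 361 intergenic and 0.438 for 908 intronic peaks at 0.5 to 10 kb. It was 0.56 for 787 peaks within 0.5 kb of a TSS. All these values describe peaks that had passed a limit on pooled signal and share a control. In 26 cases a far-distal peak shares its replicate regions with a neighbouring far-distal peak.

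**Figure D2:**
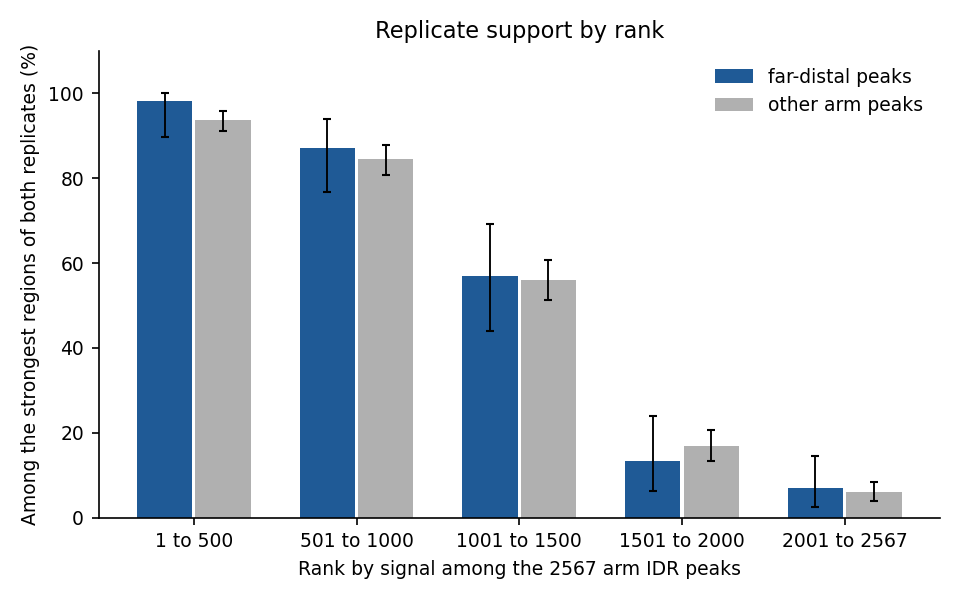
Share in percent of far-distal peaks (blue) and of other arm peaks (grey) that overlap one of the 2567 strongest arm regions of each replicate, by rank on pooled signal, with 95% Clopper-Pearson intervals as bars. Both series drop from over 90% in the first range to under 10% in the last, and the intervals overlap in every range.

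**Figure D3:**
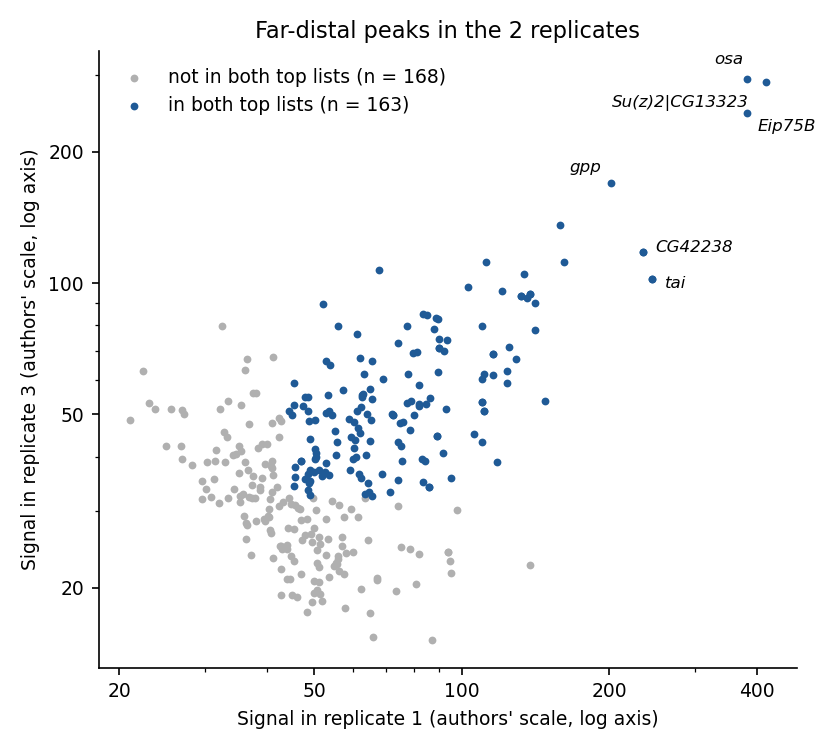
Signal in replicate 3 against signal in replicate 1 (authors' scale, log axes) for the 331 far-distal peaks with a region in both lists. Blue points are the 163 among the strongest regions of both replicates, and the peaks at osa, Su(z)2|CG13323 and Eip75B lie apart at the upper right.

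Far-distal sequence held fewer peaks for its length than the rest of the arms. Sequence more than 10 kb from every protein-coding TSS makes up 29.7% of the arms, 39.7 Mb, and held 13.2% of the IDR peaks, or 8.53 per Mb. The remaining arm sequence held 23.7 per Mb. Of the 27407 regions of the pooled list ranked below the IDR peaks, 24.4% were as far from a TSS. Density differed between arms. It was highest on the small arm 4, where it rested on 5 peaks (14.6 per far-distal Mb), followed by 2L (78 peaks, 13.2 per Mb) and 3L (105 peaks, 11.2 per Mb), and lowest on 2R (41 peaks, 5.29 per Mb) and X (36 peaks, 5.65 per Mb), with 3R between them (74 peaks, 7.42 per Mb). Of the 78 peaks on 2L, 20 lay in tai, the tagged gene, and without them 2L would stand below 3L. The order over all far-distal peaks partly followed that of the nearer peaks. These had 32.4 per Mb on arm 4, 27.9 on 3L, 26.2 on 2L and 20.1 on X. Median GC content was 37.2% for far-distal peaks and 36.2% for the other arm peaks, and repeat-masked bases made up a median of 21.3% and 20.3%. Of the 339 far-distal peaks 2 lay in an annotated transposable element, and of the 2228 other arm peaks 5 did.

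Of the 339, 209 (61.7%, interval 56.2 to 66.9%) lay in the body of a protein-coding gene, 6 of them in an exon and the rest in introns. Among the other arm peaks 63.5% did. Gene bodies hold 54.5% of far-distal sequence, so the far-distal density was 0.966 peaks per 100 kb inside genes and 0.719 between them. Without tai, the gene that was tagged, it was 0.876 inside genes. For 138 of the 209 the nearest TSS was that of the host, and for 71 it was that of another gene. The 130 intergenic peaks fell into 75 gaps between neighbouring TSSs, with a median gap of 48306 bp over these peaks. Signal was alike in both settings, with a median of 88.0 inside genes and 84.0 between them, and so was support among the strongest regions of both replicates, at 47.8% and 48.5%.

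The 209 summits had 124 host genes, which is 13.5% of the 917 protein-coding genes whose body holds far-distal sequence and can therefore host such a peak. Host genes had more of it, a median of 22.6 kb against 9.76 kb in those without a peak. For 74 hosts there was 1 peak. The gene with the most was tai itself, with 20 (3.66 per 10 kb of its far-distal sequence), followed by sbb with 8 (3.14 per 10 kb), which encodes the nuclear corepressor Brakeless. kirre, which encodes an adhesion protein of myoblast fusion, held 6 in a much longer body (0.375 per 10 kb). The ETS transcription factor gene Eip74EF held 5 (2.2 per 10 kb), as did jing, a zinc finger gene (0.633), and nmo, a protein kinase gene (0.872). Snoo, which encodes a Ski-family corepressor, held 4 (0.603 per 10 kb) and osa held 3 (2.66). Density was not highest in tai over all hosts, since Samuel held 2 peaks in 2668 bp of far-distal sequence (7.5 per 10 kb).

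**Figure D4:**
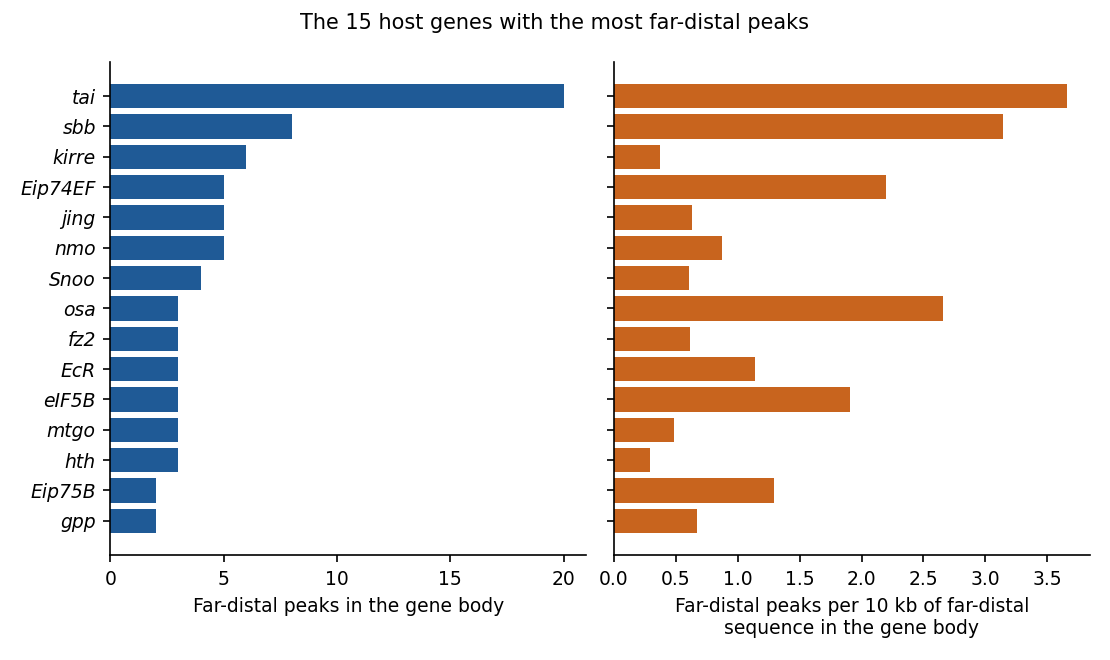
The 15 host genes with the most far-distal peaks, with the number of peaks in the gene body on the left and the number per 10 kb of far-distal sequence in that body on the right. Among these 15, tai leads on both scales with 20 peaks and 3.66 per 10 kb, and kirre, next after sbb by number, falls to 0.375 per 10 kb.

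The hosts with the most peaks differed in the strength of their peaks and in their support in both replicates. The 4 in Snoo had signals of 103, 119, 137 and 167, and all 4 stood among the strongest regions of both replicates. The 5 in nmo had signals between 65.7 and 74.6 and none did. The signals of these genes did not overlap. By pooled signal the Snoo peaks ranked 358 to 960 and the nmo peaks 1849 to 2512, and support fell with rank over the whole list. Over all 339 far-distal peaks the share with such support was 48.1%. Of the 5 peaks in Eip74EF, 4 had support in both replicates, and the strongest pair, with signals of 153 and 148, overlapped the same region in each replicate list (signal 116 in replicate 1 and 68.6 in replicate 3). In kirre signals ran from 68.2 to 165, and 2 of 6 had such support.

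The 20 summits in tai spread over 46139 bp, from 11176 to 36612 bp from the nearest TSS. Signals ran from 66.5 to 346 with a median of 88.1, close to the 87.1 of all far-distal peaks, and 9 of the 20 had support in both replicates. The strongest pair, 346 and 208, lay 34941 and 35146 bp from the nearest TSS and shared 1 region in each replicate list. The next strongest had 178, with 110 in replicate 1 and 79.8 in replicate 3. The summits of 131 and 68.9 also shared 1 region in each replicate list, so the counts of 20 and 9 take such regions more than once. In total 29 arm IDR peaks lay in the body of tai. The larvae carry a tagged form of this gene, and any part of the transgene in these peaks was not tested. Leaving out tai left 319 far-distal peaks with the same median signal of 87.1.

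Neighbouring summits were joined when they lay within 10 kb of each other. This gave 63 clusters of 2 or more, of which 18 had 3 or more, and they held 179 of the far-distal peaks (52.8%). The other 160 stood alone. Joined in the same way, 71.6% of the other arm peaks, which are more numerous and more densely spaced, stood in clusters. The median distance to the next far-distal summit was 8382 bp and to the next arm summit of any kind 5427 bp, while 25 peaks had no other arm peak within 50 kb. After tai, the largest cluster was that in sbb, whose 8 summits spanned 11236 bp with signals from 67.4 to 234, 6 with support in both replicates. The sbb summits of 234 and 168 shared 1 region in each replicate list. The next 2 clusters lay between genes on 3L.

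Between Ids, a sulfatase gene, and sty, which encodes Sprouty, an inhibitor of receptor tyrosine kinase signalling, 7 summits spanned 10373 bp with signals from 73.0 to 221. The strongest had 132 in replicate 1 (rank 254) and 93.5 in replicate 3 (rank 174) and lay 23057 bp from the TSS of sty. It shared these replicate regions with the summit of 101. Between hry, the gene of the bHLH repressor Hairy, and SrpRbeta, 5 summits spanned 10257 bp. The strongest, 210, had 121 in replicate 1 (rank 308) and 95.8 in replicate 3 (rank 164), and the weakest, 66.0, had no region in replicate 3. In both stretches the strongest summit stood among the 2567 strongest regions of both replicates and the weakest did not.

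**Figure D5:**
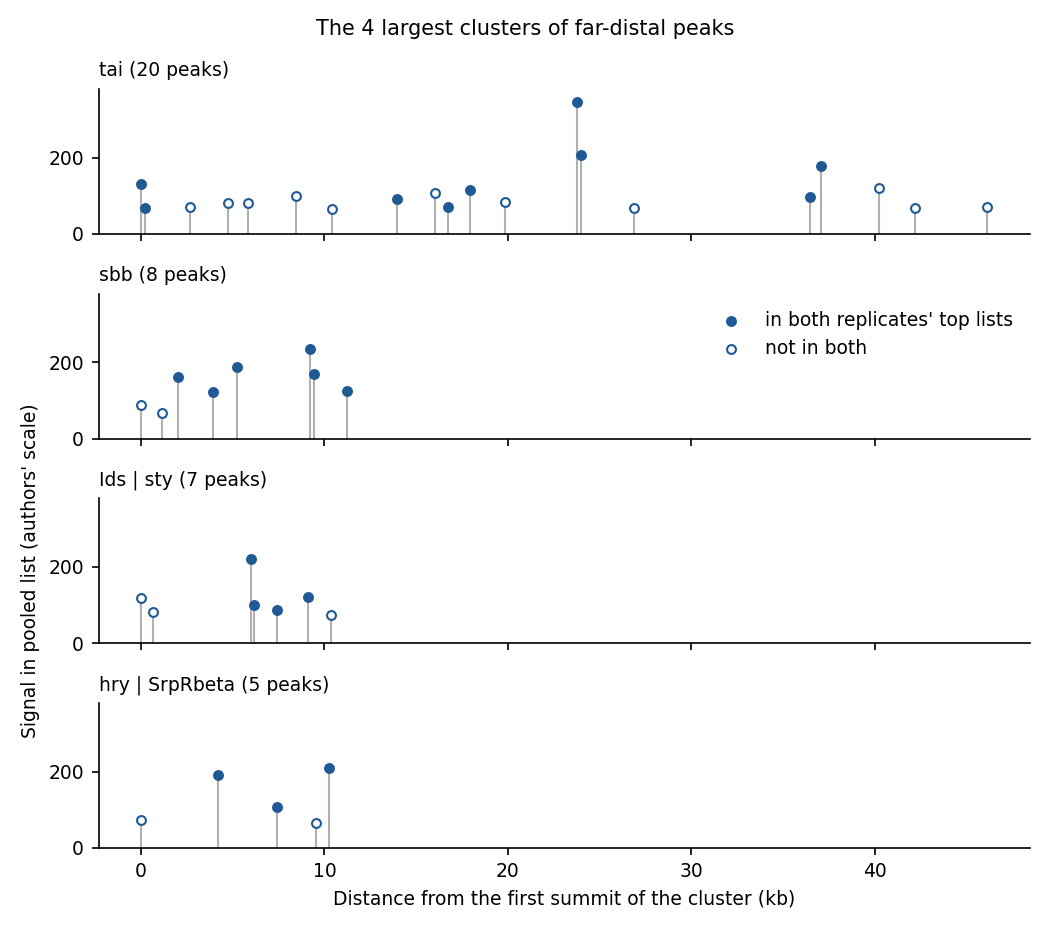
Pooled signal (authors' scale) of each far-distal summit in the 4 largest clusters against its distance in kb from the first summit of the cluster, filled where the peak overlapped the 2567 strongest arm regions of both replicates. tai spans 46139 bp with 1 summit at 346, and the other clusters are at most 11236 bp long.

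Genes of the ecdysone response often hosted far-distal peaks. Of 31 listed, 14 hold far-distal sequence, and 9 of these 14 hosted a far-distal peak, where 13.5% of all such genes did. Their bodies held 37 peaks, 20 of them in tai, and without tai 8 of 13 genes held 17 peaks, 6.68 per 100 kb of far-distal sequence, against 0.876 over all gene bodies without tai. The median far-distal length was 19.1 kb in this list and 11.2 kb over all 917 genes. The list was chosen with results of these data known and includes tai as a coactivator, so the count is a description.

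Eip75B had the strongest peak of the list, and in all 2 in its body among 21 arm IDR peaks. The second had a signal of 101, with 42.8 in replicate 1 (rank 2621) and 48.3 in replicate 3 (rank 836). EcR, the gene of the ecdysone receptor itself, held 3 far-distal peaks among its 16, with signals of 99.5, 93.2 and 69.4. The middle one ranked 13820 in replicate 1 and 463 in replicate 3, so the replicates differed widely on it. Hr4, a nuclear receptor induced by ecdysone, held 2 (111 and 77.6). Hr3, another, also held 2 (74.3 and 67.7), and these summits lie in overlapping genes as well. Of Hr39 and ftz-f1, nuclear receptors that are close relatives, the first held a peak of 99.1 (ranks 1281 and 1048) and the second a peak of 99.8 (ranks 2302 and 536). Eip63E, which encodes a cyclin-dependent kinase, held a peak of 99.9 (ranks 1253 and 1222). Eip93F, an ecdysone-induced transcription factor gene, only flanked a peak, of 123. EcR, Hr3, Hr39 and Eip63E were named after their values had been seen.

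The nuclear receptor list, which shares many of these genes, had 7 hosts among 9 with far-distal sequence, beside 13.5% over all 917 genes. Its host outside the ecdysone list was knrl, with a peak of 147 (81.2 in replicate 1 and 69.5 in replicate 3). In the Wingless pathway 5 of 8 (62.5%) were hosts, with a median far-distal length of 21.0 kb against 11.2 kb over all 917 genes. Beside fz these were the receptor gene fz2 (3 peaks, the strongest 132), the coreceptor gene arr (144), the glypican gene dlp (97.8 for the stronger of 2) and the antagonist gene nkd (102). The coactivator gene lgs flanked 3 peaks, the strongest 141. The ligand genes wg and Wnt6 flanked a peak of 81.5 that ranked 8779 in replicate 1 and 730 in replicate 3. In the Hippo list 4 of 10 were hosts, with a median far-distal length of 7.75 kb: the polarity genes scrib (109) and ds (104), the homeobox gene hth (75.0) and the pathway regulator kibra (66.6). Myc flanked 3 peaks, the strongest 129. Of these lists nkd, dlp, wg, Wnt6 and kibra were named after their values had been seen.

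In the other lists of signalling and patterning genes the share of hosts ran from 16.7 to 28.6%, beside 13.5% over all 917 genes, on 5 to 19 genes each. Their median far-distal lengths ran from 8.28 kb (EGF receptor) to 18.3 kb (Notch), against 11.2 kb over all 917 genes. Peaks per 100 kb of far-distal sequence ran from 0.639 (Hox) to 3.05 (EGF receptor), against 0.876 over all gene bodies without tai. Hosts numbered 2 of 7 in the Notch pathway, N (93.8) and the protease gene kuz (68.1), and 1 of 5 in the Dpp pathway, the T-box gene bi (110). The ligand gene dpp flanked a peak of 196 that ranked 446 and 156. In the EGF receptor list 2 of 8 were hosts, the ETS gene pnt (141) and S (110), and sty flanked 10 peaks. Of genes that pattern legs and wings 5 of 19 hosted a peak, among them inv (104) and, named after its value had been seen, the BTB-domain gene bab1 (82.1). Among Hox genes it was 1 of 6, Antp (169, ranks 686 and 224). In the list of neural fate factors hosts were 3 of 15, with signals of 65.7 to 81.6.

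Cell adhesion and guidance genes had the most far-distal sequence of any list, 1555.2 kb. Of these, 5 of 37 (13.5%) were hosts, the same share as over all 917 genes, and their 12 peaks came to 0.772 per 100 kb, near the 0.876 of all gene bodies without tai. Of the tissue markers, 0 of 12 neuron genes, 0 of 4 muscle genes and 0 of 3 trachea genes with far-distal sequence were hosts. Among hemocyte markers it was 1 of 4, lz at 68.9. The tissue lists are small, and beside 13.5% over all 917 genes nothing is read from their counts. The fat body and salivary gland markers held no far-distal sequence in their bodies, so they could have no peak of this kind. In the remaining lists hosts were 2 of 6 genes of insulin and growth, heca (122 for the stronger of 2) and the insulin receptor gene InR (77.2), 1 of 4 genes of the bHLH-PAS family (tai), the only eligible GATA factor, grn (69.8), 0 of 2 midgut and 0 of 2 forkhead genes, and 0 of 1 for cuticle and for circadian genes. Counting flanks as well, 352 of all 13945 protein-coding genes (2.52%) hosted or flanked a far-distal peak.

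Summits far from the TSSs of protein-coding genes can still lie near those of other genes. Of the 339, 23 (6.78%) lay within 1000 bp of the TSS of a gene of another biotype, against 11.1% of the other arm peaks. Strong ones among these lay by long noncoding RNA genes. They include 2 peaks in osa, at 710 and 153 bp from the TSS of lncRNA:CR46035, the Ids|sty peak of 221 at 816 bp from lncRNA:CR45737, and a peak of 155 between plh and corto at 397 bp from lncRNA:CR46352. Of 46 microRNA genes listed, 11 (23.9%) had a far-distal summit within 25 kb, and of all 260 microRNA genes on the arms 26 (10%) did. Some of these genes lie side by side and share a summit. Among the 46 listed genes, the nearest were mir-9a (1464 bp, signal 68.1), mir-10 (2556 bp, 70.9) and mir-276a (2731 bp, 70.6), named after their values had been seen.

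Of the 20 motifs searched, 17 had a share in the other arm peaks that lay inside the interval of the far-distal share, and 3 were less frequent at far-distal summits. The DRE, TATCGATA, which is bound by DREF at promoters of housekeeping genes, was in 0 of 339 windows of 201 bp, which allows a share of up to 0.885% by the limit of 3 counts (Clopper-Pearson upper bound 1.08%). It was in 2.83% of the other arm peaks and in 6.9% of those within 0.5 kb of a TSS, but in only 0.213% of intronic peaks at 0.5 to 10 kb. GAGAGAG, bound by GAGA factor, was in 2.06% (interval 0.834 to 4.21%), against 4.98% of the other arm peaks. It was in 5.74% of those intronic peaks and in 1.93% of the 6696 lower-ranked far-distal regions. CACGCG was in 1.18% (0.322 to 2.99%), against 4.13% of the other arm peaks and 5.71% of those within 0.5 kb of a TSS. It was in 2.98% of intronic peaks at 0.5 to 10 kb, inside that interval, and in 2.14% of the lower-ranked far-distal regions. Another promoter motif, Motif 1 (GGTCACACT), showed no such gap, with 0.885% (0.183 to 2.56%) against 0.853%.

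The motifs inside the interval include those of factors that act at enhancers. The nuclear receptor core AGGTCA was in 4.42% of far-distal windows (2.5 to 7.19%) and 3.46% of the others, the AP-1 motif TGANTCA in 6.49% (4.11 to 9.66%) and 5.07%, the TEAD motif CATTCCA in 3.54% and 2.56%, CATATG in 9.14% and 8.3%, and TTAATTA in 11.5% and 11.0%. The A tract AAAAAAAA was the most frequent, in 19.8% and 16.4%. These motifs all had higher shares at far-distal summits, but only 9 of the 20 searched did. The forkhead motif TGTTTAC (5.9% and 6.91%), the GATA motif AGATAAG (2.65% and 3.41%) and GTGGGAA (2.06% and 2.24%) had lower shares. So had GGCGCCA (1.18% and 2.6%) and CAGCTG (6.19% and 7.45%). In the intronic peaks compared above, AGGTCA was in 4.78% and TGANTCA in 6.59%. No lean in either direction is read from these shares.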

How the data were processed

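The deposited files are narrowPeak lists, per the text records deposited with them: one for each replicate, one from both replicates' pooled alignments, all against 1 control, and the IDR list derived from them. The authors' signal of each region is relative to the control, with no scale stated. What aligner and caller made the lists is not given in the sources used here. Depth per replicate is unknown. The dm3 lists, the q values, the reads and the control were not used here. The software was Python 3.11.15, pandas 2.3.3, matplotlib 3.10.9, scipy 1.17.1 and numpy 2.4.6, with genes and TSSs of Ensembl release 115 (BDGP6.54), and RefSeq sequence of the same assembly. Coordinates are 1-based on dm6. Shares have 95% Clopper-Pearson intervals, which cover counting error only, and medians have intervals from order statistics. No hypothesis test was run, since there is 1 group and peaks are not replicates. Functions were tested on simulated data.

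The members, the gene lists and the motifs were chosen with earlier results of these data known. Genes were named by a rule: the 12 strongest peaks, the 8 hosts with most peaks, the 5 largest clusters, up to 4 genes a list by strongest peak (others are marked in the text), the 3 peaks on either side of the 10 kb line, the 3 farthest, and up to 5 by other genes. The last of these clusters, with its genes, is not reported here. Alternatives changed the distance, the TSS set, the peak list, the overlap, the gap and the window, and left out each replicate or tai.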

Additional observations from a re-analysis of the deposited data

How the results depend on the processing

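Of 80 recomputed values over 19 alternatives, 58 stayed within the limit set for them (1.5 times for a count, the main interval for a share or ratio). The number and share of far-distal peaks followed the distance and the TSS set: 677 (26.4%) at 5 kb, 105 (4.09%) at 20 kb, 603 (23.5%) with 1 start per gene, 203 (7.91%) with starts of every biotype, and 121 among the 1000 strongest peaks. Clusters numbered 136, 21, 118, 35 and 12 under those 5 choices. The share in gene bodies became 78.1% with 1 start per gene and 83.3% with every biotype. The share of genes hosting a peak became 18.8% with 1 start per gene, 6.0% among the 1000 strongest and 8.64% with 10 kb added to each gene end. Support in both replicates was 91.7% among the 1000 strongest peaks, and 20.1% and 71.4% when the 1000 or 5000 strongest regions of each replicate were used. Without replicate 1 or replicate 3, from the other's own 2567 strongest regions, there were 335 and 316 far-distal peaks (13.1% and 12.3%), 66.6% and 60.1% of them in gene bodies, 54 and 55 clusters, a ratio of median signals of 0.983 and 0.943, 14.7% and 12.2% of genes hosting, and 8 and 8 of 20 motifs more frequent than at nearer peaks. Leaving out tai, an alternative chosen after seeing the data, changed none beyond its limit. No paired analysis was possible because there is 1 group. Where the cause of a change is not given by the alternative's construction, the cause was not tested. Unknown depth limits all of this to counts of regions.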
